A study of Mus musculus with 9 samples.

Results

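The hedgehog pathway genes described here were 9 genes picked by name: the ligand Shh, the receptor Ptch1, the ligand-binding inhibitor Hhip, the co-receptors Boc and Gas1, the signal transducer Smo and the transcription factors Gli1, Gli2 and Gli3. Each was matched from its Ensembl identifier to a mouse symbol, and all 9 were found among the 54232 genes of the deposited tables. RNA was sequenced from the cochlear ducts of 9 mouse embryos at embryonic day 14.5 (E14.5), 3 wild type (WT), 3 Prdm16-het and 3 Prdm16-null, with both inner ears of 1 embryo in each library. The mutants carried the gene trap allele Prdm16 cGT, on 1 chromosome in heterozygotes and on both in null embryos, on the FVB/NJ background. The allele was in the germline, so that no tissue-specific driver limited it to the duct.

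Hedgehog signalling works by the release of a brake. PTCH1 holds the membrane protein SMO inactive until a hedgehog ligand binds PTCH1 with the help of the co-receptors GAS1, BOC and CDON, after which SMO acts in the primary cilium to change how the GLI proteins are processed. GLI2 is mainly an activator, GLI3 is mainly cut into a repressor, and GLI1 is both an activator and a transcriptional target, so that Gli1, Ptch1 and Hhip RNA are commonly used as readouts of the pathway. In the inner ear, SHH patterns the ventral otocyst, and SHH made by spiral ganglion neurons later reaches the cochlear duct, where it holds back hair cell differentiation.

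Total counts ranged from 24095322 to 30819118 per library, and a floor of 3 counts lay between 0.0973 and 0.125 CPM (counts scaled to library size), which covers counting error only. Prdm16 RNA was 202.3 ± 20.2 CPM in WT, 138.0 ± 14.2 CPM in heterozygote and 23.4 ± 4.17 CPM in null embryos (SD, n = 3 each), in the order of the labels and with no overlap. The duct epithelium marker Epcam was at 603.1 to 834.3 CPM in the 9 libraries. Markers of the tissue around the duct set 3 libraries apart. The summed level of 12 periotic mesenchyme markers was 590.8 CPM in WT embryo 1, 1097 CPM in WT embryo 2 and 1497 CPM in null embryo 3, against 37.7 to 116.0 CPM in the other 6, and 6 endothelium markers were split likewise (48.0 to 82.6 against 2.10 to 5.94 CPM). Null embryo 3 also held cartilage RNA, since Acan, which encodes the main cartilage proteoglycan, reached 501.2 CPM there and at most 7.02 CPM elsewhere. Of 12 neuron markers, 6 stayed under 1 CPM in all libraries and Nhlh2 was at 0 in all, while Isl1, at 175.0 to 273.2 CPM, made up most of their sum of 214.7 to 292.1 CPM. The neurofilament genes Nefm and Nefl were highest in null embryo 3 (16.6 and 7.83 CPM), next in WT embryo 3 (6.60 and 2.86 CPM), and at most 2.42 and 0.664 CPM elsewhere. The 7 glia markers summed to 1412 to 1696 CPM, and the 6 blood and macrophage markers to 49.1 to 141.8 CPM in WT, 19.96 to 30.9 CPM in heterozygote and 27.0 to 64.1 CPM in null embryos. The null differences from WT of the 8 members tested, and the heterozygote differences of Ptch1, Gas1, Boc and Gli1, are also given without WT embryos 1 and 2 and null embryo 3. They come from 1 fit of the other 6 libraries, in which the 1 WT embryo left is assumed to vary like the heterozygotes and null embryos. The mean log2 CPM of Y-linked genes was -3.61 in WT embryo 3 and 6.23 and 5.95 in null embryos 1 and 2. Between null and WT in that fit, genotype and sex, as read from these genes, cannot be told apart.

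**Figure D1:**
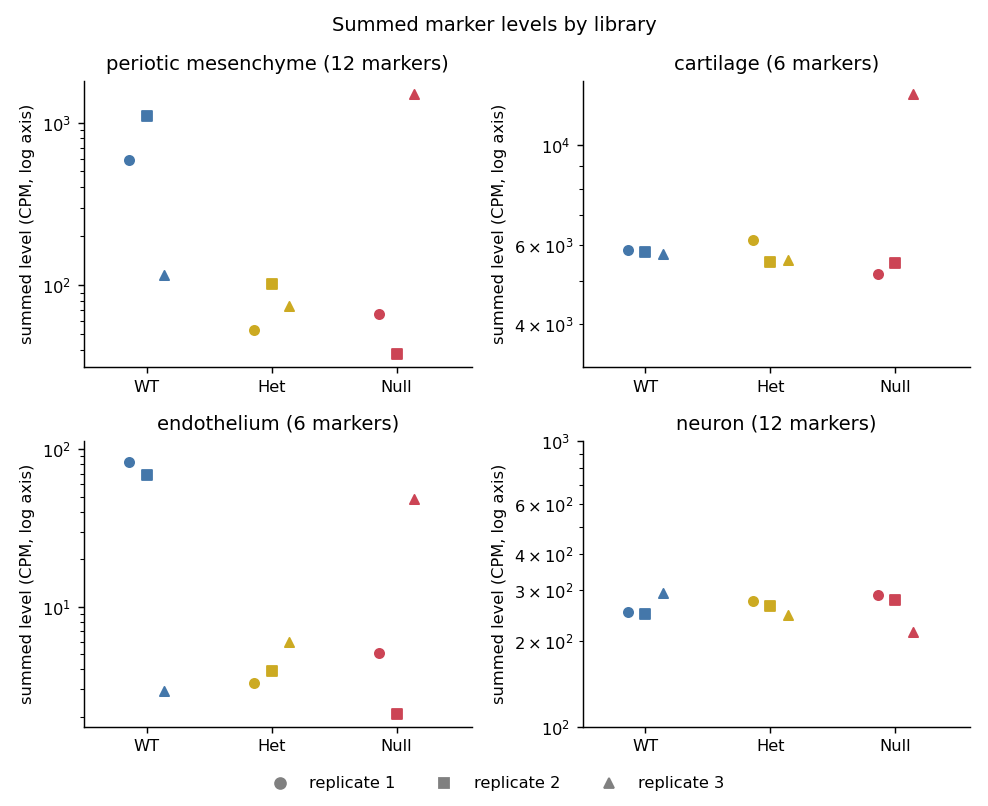
Summed level of the markers of 4 cell types (y axis, CPM, log scale) in the WT, Het and Null libraries (x axis), with 1 point per library. The mesenchyme and endothelium sums were high in WT 1, WT 2 and Null 3. The cartilage sum, mostly Col2a1 in every library, was 12979 CPM in Null 3 and at most 6168 CPM elsewhere. Acan, of the same list, was at 501.2 CPM in Null 3 and at most 7.02 CPM elsewhere. The neuron sum, mostly Isl1, was lowest in Null 3, where Nefm and Nefl were highest.

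No library held a single read of the ligand. Shh (ENSMUSG00000002633, mm10 chromosome 5, 28456815 to 28467256, minus strand) had 0 counts in each of the 9 libraries, which allows a level of up to 0.125 CPM in the shallowest, and was not tested. This limit covers counting error only and holds where the authors' counting could assign reads to the gene. Its strand setting and annotation release are not given in the sources used here, and the 37 mitochondrial genes were at 0 in the same tables. Of its 2847 exonic bases, 807 are shared with genes on the other strand, and these held at most 1 read in any library. The other hedgehog ligands, named after their values were seen, were also low. Ihh, the ligand of growth plate cartilage, had 1 to 10 counts in 8 libraries and 53 in null embryo 3, the library with cartilage RNA. Dhh, the ligand of Schwann and Sertoli cells, had 0 to 9 counts. Disp1, which releases the lipid-modified ligand from the cell that makes it, was measured at 34.8 to 40.9 CPM.

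The receptor gene Ptch1 (ENSMUSG00000021466, chromosome 13, 63508328 to 63573598, minus strand) was higher in each mutant duct than in any WT duct, but the difference did not pass the test. Ptch1 was at 146.4, 134.8 and 143.0 CPM in WT, 167.4, 190.7 and 203.1 CPM in heterozygotes, and 218.8, 176.4 and 174.4 CPM in null embryos, listed from embryo 1 to embryo 3 here and for each gene. Heterozygote and null values overlapped, and both groups lay above all 3 WT values. The log2 fold change from WT was 0.42 in null embryos (SE 0.102, edgeR adjusted p = 0.107) and 0.41 in heterozygotes (SE 0.0680, edgeR adjusted p = 0.0504), where SE is the standard error. Between null and heterozygote it was 0.02 (95% interval -0.24 to 0.28). In DESeq2 the adjusted p was 0.0109 for null and 5.65e-06 for heterozygote embryos against WT, with a fold change under the threshold of 0.5 in both. Without WT embryos 1 and 2 and null embryo 3, the null difference was 0.48 (edgeR adjusted p = 0.292) and the heterozygote difference 0.40 (edgeR adjusted p = 1). In bulk tissue, fewer cells of a type and less RNA per cell cannot be told apart.

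Hhip (ENSMUSG00000064325, chromosome 8, 79965851 to 80058006, minus strand), which encodes a membrane protein that binds and sequesters hedgehog ligands, was the weakest member with reads. Hhip had 10.2, 12.0 and 11.7 CPM in WT, 9.96, 13.9 and 13.4 CPM in heterozygote, and 10.7, 9.09 and 19.1 CPM in null embryos. The genotypes overlapped, and the highest value came from null embryo 3, whose cartilage markers were high. The log2 fold change of 0.20 between null and WT (95% interval -0.43 to 0.82, edgeR adjusted p = 0.818) turned to -0.19 without that library, and was -0.23 without WT embryos 1 and 2 and null embryo 3 (edgeR adjusted p = 0.767).

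Among the co-receptors, Gas1 (ENSMUSG00000052957, chromosome 13, 60174405 to 60177365, minus strand), which encodes a membrane-anchored protein that binds SHH together with PTCH1, had the largest change of the 8 members tested. Gas1 was at 203.1, 160.9 and 189.5 CPM in WT, 241.2, 250.3 and 259.7 CPM in heterozygote and 343.0, 328.5 and 355.6 CPM in null embryos. The 3 genotypes did not overlap, and the null level was 1.85 times the WT level in the fit. From WT to null the log2 fold change was 0.89 (SE 0.0969, 95% interval 0.67 to 1.11, edgeR adjusted p = 0.00565), and it passed whichever of the 6 embryos was left out (0.81 to 0.97). Without WT embryos 1 and 2 and null embryo 3 it was 0.84 (edgeR adjusted p = 0.00977). The difference between heterozygote and WT was 0.44 (SE 0.0766, edgeR adjusted p = 0.0582) and that between null and heterozygote 0.45 (SE 0.0726, edgeR adjusted p = 0.0431), both under the fold change threshold. Without those 3 libraries these were 0.41 (edgeR adjusted p = 0.64) and 0.43 (edgeR adjusted p = 0.0507). The antisense gene Gm48488 overlaps 589 of the exonic bases and held 16 to 38 reads per library, against 4088 to 10189 for Gas1.

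Boc (ENSMUSG00000022687, chromosome 16, 44485049 to 44558897, minus strand), the gene of an immunoglobulin and fibronectin repeat co-receptor related to CDON, lay on the other side of WT. Boc was at 187.1, 201.4 and 186.4 CPM in WT, 169.3, 157.9 and 150.3 CPM in heterozygote and 118.9, 124.4 and 164.9 CPM in null embryos. Every mutant duct was below every WT duct, and null embryo 3, the highest null value, lay within the heterozygote range. From WT to null the log2 fold change was -0.50 (SE 0.126, 95% interval -0.79 to -0.20, edgeR adjusted p = 0.131) and did not pass. In DESeq2 it was -0.495 (DESeq2 adjusted p = 0.00761), just short of the fold change threshold. It was -0.65 without null embryo 3 (edgeR adjusted p = 0.00965) and -0.60 without WT embryos 1 and 2 and null embryo 3 (edgeR adjusted p = 0.0472), and in both of these fits Boc was called lower, the latter with 1 WT embryo. In heterozygotes the value was -0.26 (SE 0.0536, edgeR adjusted p = 0.0722), and -0.22 without those 3 libraries (edgeR adjusted p = 1).

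Promoter windows from RefSeq (GRCm38.p6, 250 bases before to 50 after a transcript start) were matched by symbol for 6 of the 9 members, all but Shh, Boc and Gli1. The 250 upstream bases are shown for Gas1, the member with the largest difference, at chr13:60177536-60177785, and for Ptch1, the receptor gene that is a known GLI target, at chr13:63565736-63565985, both on the minus strand and written 5′ to 3′. The Gas1 window lies beyond the annotated 5′ end of the gene at 60177365. The Ptch1 window lies inside the annotated gene, at an internal transcript start, and the outermost start near 63573598 was not searched. Capitals mark the GC box letters GGGCGGG on either strand, which the Gas1 window does not hold.
Gas1: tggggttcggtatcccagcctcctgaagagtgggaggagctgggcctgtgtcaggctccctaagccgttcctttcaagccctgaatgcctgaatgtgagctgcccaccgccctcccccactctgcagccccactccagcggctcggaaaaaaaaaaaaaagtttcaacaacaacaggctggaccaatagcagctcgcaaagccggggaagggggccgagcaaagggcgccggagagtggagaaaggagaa
Ptch1: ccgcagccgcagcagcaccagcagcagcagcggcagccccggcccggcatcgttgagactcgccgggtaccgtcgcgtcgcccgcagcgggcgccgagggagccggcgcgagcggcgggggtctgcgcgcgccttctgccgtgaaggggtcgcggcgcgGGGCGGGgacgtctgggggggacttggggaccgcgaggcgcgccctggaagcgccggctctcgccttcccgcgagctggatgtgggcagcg
The windows were searched on both strands for the GLI consensus GACCACCCA and for its core CCACCCA, which lies within it. Of the 6 members, 0 held either, while 0.253% and 9.30% of all 32851 windows did, which says only that these letters are not in these windows. The GC box letters were in 4 of the 6 members (Ptch1, Hhip, Gli2 and Gli3) and in 25.6% of all windows.

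Smo (ENSMUSG00000001761, chromosome 6, 29735503 to 29761365, plus strand), the transducer, varied little. Smo was at 198.9, 201.4 and 187.3 CPM in WT, 201.5, 204.5 and 204.4 CPM in heterozygote and 193.7, 168.6 and 206.9 CPM in null embryos. Null embryo 2 was the lowest, and null values lay on both sides of WT. From WT to null it differed on the log2 scale by -0.05 (95% interval -0.26 to 0.16, edgeR adjusted p = 0.870), with the whole interval inside the threshold of 0.5, and that between heterozygote and WT was 0.06 (95% interval -0.03 to 0.15, edgeR adjusted p = 0.604). The null difference was -0.04 without WT embryos 1 and 2 and null embryo 3 (edgeR adjusted p = 0.938).

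Among the transcription factors, Gli1 (ENSMUSG00000025407, chromosome 10, 127329882 to 127341974, minus strand) rose in null embryos. Gli1 was at 80.4, 91.1 and 96.1 CPM in WT, 99.8, 140.4 and 141.9 CPM in heterozygote and 149.8, 140.8 and 129.7 CPM in null embryos. All 6 mutant ducts were above all WT ducts, with heterozygote embryo 1 close to WT and the other 2 heterozygotes within the null range. On the log2 scale the null embryos differed from WT by 0.65 (SE 0.0937, 95% interval 0.43 to 0.87, edgeR adjusted p = 0.0165), a 1.57-fold difference. With 1 embryo left out at a time, Gli1 stayed called in 3 of 6 fits. The call was lost without WT embryo 1 (0.59, edgeR adjusted p = 0.0915), WT embryo 2 (0.67, edgeR adjusted p = 0.104) or null embryo 1 (0.60, edgeR adjusted p = 0.0557). Without WT embryos 1 and 2 and null embryo 3 the difference was 0.61 (edgeR adjusted p = 0.261), and that of heterozygotes 0.42 (edgeR adjusted p = 1). With all libraries the heterozygotes differed from WT by 0.52 (SE 0.121, edgeR adjusted p = 0.0938), and null and heterozygote differed by 0.13 (95% interval -0.18 to 0.45).

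Gli2 (ENSMUSG00000048402, chromosome 1, 118834132 to 119053619, minus strand) overlapped between null and WT. Gli2 was at 96.8, 99.0 and 99.7 CPM in WT, 104.0, 99.6 and 100.8 CPM in heterozygote and 104.1, 83.0 and 102.2 CPM in null embryos. From WT to null, Gli2 had a log2 fold change of -0.03 (95% interval -0.26 to 0.19, edgeR adjusted p = 0.921), and -0.08 without WT embryos 1 and 2 and null embryo 3 (edgeR adjusted p = 0.871). Gli3 (ENSMUSG00000021318, chromosome 13, 15463235 to 15730026, plus strand) was at 135.2, 145.2 and 152.3 CPM in WT, 130.8, 146.2 and 131.5 CPM in heterozygote and 130.8, 84.3 and 119.5 CPM in null embryos. Null values of Gli3 were all below WT, with null embryo 2 far below the other 2, and the log2 fold change of -0.37 (95% interval -0.73 to -0.02, edgeR adjusted p = 0.380) did not pass. The Gli3 difference was -0.20 without null embryo 2 (edgeR adjusted p = 0.338), -0.50 without null embryo 1 (edgeR adjusted p = 0.221) and -0.49 without WT embryos 1 and 2 and null embryo 3 (edgeR adjusted p = 0.421).

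**Figure D2:**
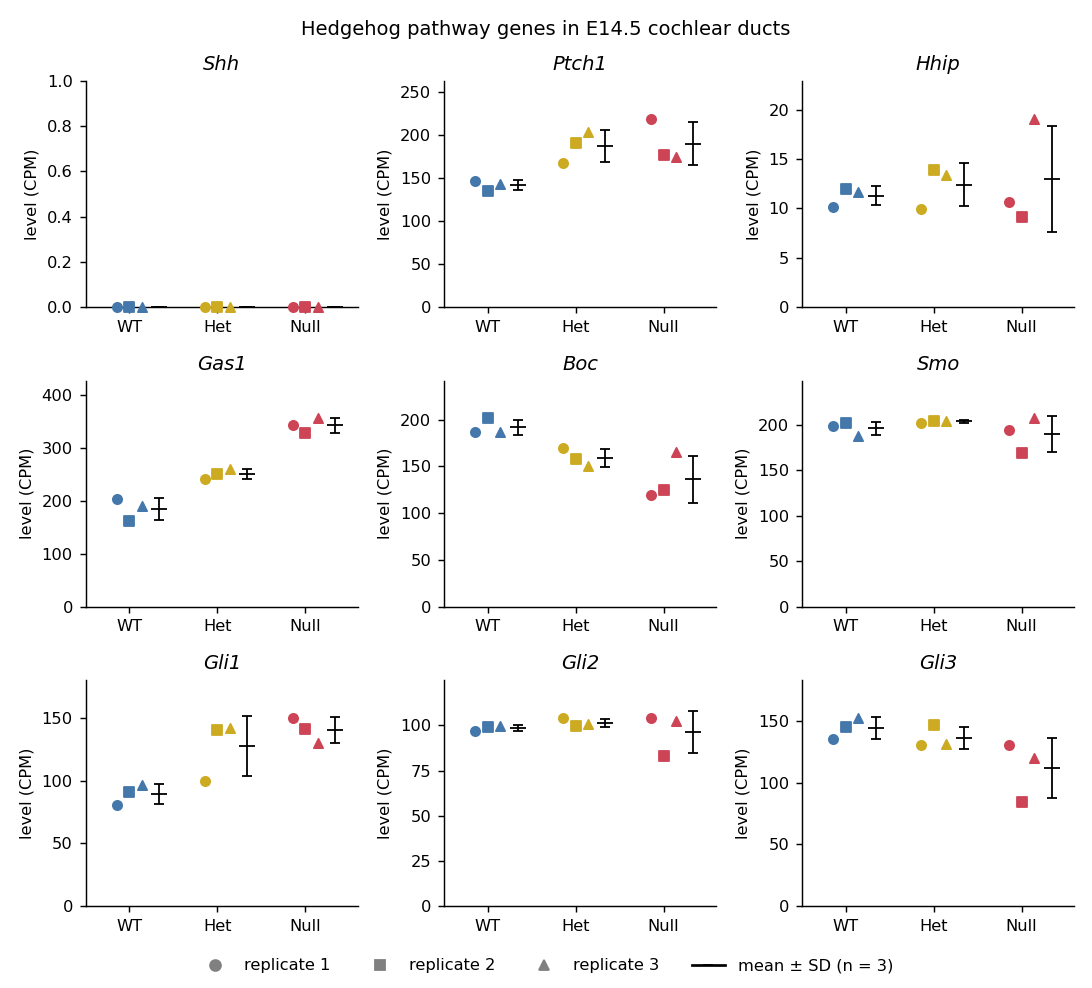
Level of each of the 9 genes (y axis, CPM from 0) in the WT, Het and Null libraries (x axis), with 1 point per embryo and the mean ± SD (n = 3) beside each group. Shh was at 0 throughout, Gas1 was higher in heterozygotes than in WT and higher again in null embryos with no overlap, and the mutant values of Ptch1 and Gli1 lay above and those of Boc below all WT values.

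Of the 9 members, 8 were tested between null and WT, and 2 were called higher (Gas1 and Gli1) and 0 lower, with calls made at an adjusted p under 0.05 and a log2 fold change past 0.5 in either direction. In all 17168 genes tested, 0.920% were called higher, 0.786% lower and 1.71% in either direction. The groups did not overlap for 5 of the 8 members, 3 higher (Ptch1, Gas1 and Gli1) and 2 lower (Boc and Gli3), beside 9.85% of all genes higher, 9.15% lower and 19.0% in all. The median log2 fold change of the 8 members was 0.08, beside 0.01 in all genes, since 4 members were positive and 4 negative. DESeq2 and limma-voom called the same 2 genes, while leaving out WT embryos 1 and 2 and null embryo 3 gave 1 higher (Gas1) and 1 lower (Boc), beside 85 genes higher and 123 lower of 19133.

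Between heterozygotes and WT, 0 of the 8 members were called in edgeR, beside 0.0521% of 17269 genes higher, 0.0984% lower and 0.151% in either direction. At an unadjusted p under 0.05 there were 4 (Ptch1, Boc, Gas1 and Gli1), against 13.1% of all genes, and DESeq2 and limma-voom also called 0. The groups did not overlap for 5 members, 4 higher (Ptch1, Gas1, Gli1 and Smo) and 1 lower (Boc), beside 8.46% of all genes higher, 9.50% lower and 18.0% in all. The median of the 8 members was 0.10, beside 2.94e-05 in all genes. In every heterozygote the blood and macrophage sum (19.96 to 30.9 against 49.1 to 141.8 CPM) and the mesenchyme sum (53.4 to 102.1 against 116.0 to 1097 CPM) were below those of every WT embryo. With a covariate for the mesenchyme markers the differences were 0.41 for Ptch1, 0.37 for Gas1, 0.52 for Gli1 and -0.22 for Boc, with 0 members called, and the part of the blood markers was not tested. Leaving out 1 embryo gave at most 1 call, which was Gli1 without WT embryo 3 (0.58) or heterozygote embryo 1 (0.67) and Gas1 without WT embryo 1 (0.52).

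Between null and heterozygote embryos, 0 of the 8 members were called in edgeR, DESeq2 or limma-voom, beside 0.293% of 17067 genes higher in edgeR, 0.322% lower and 0.615% in either direction. At an unadjusted p under 0.05 there was 1, Gas1, against 11.4% of all genes, and Gas1 was also the 1 member whose groups did not overlap, beside 9.24% of all genes higher, 8.84% lower and 18.1% in all. The step from WT to heterozygote and the step from heterozygote to null, which share the heterozygous embryos, were 0.44 and 0.45 for Gas1, 0.41 and 0.02 for Ptch1, 0.52 and 0.13 for Gli1, and -0.26 and -0.23 for Boc on the log2 scale. Whether the steps of a gene differed from each other was not tested.

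**Figure D3:**
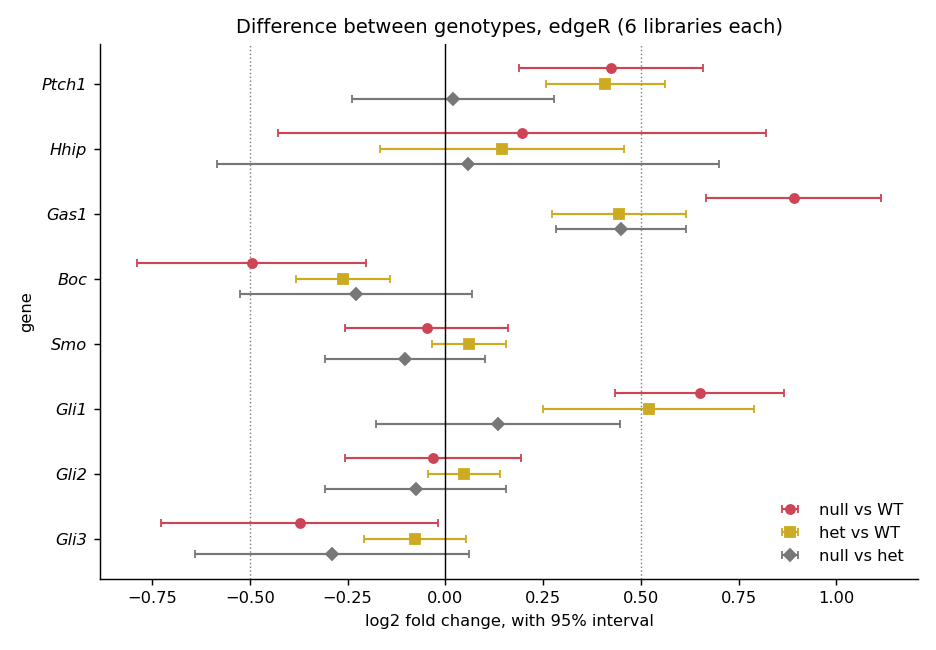
Log2 fold change (x axis) of the 8 members with reads (y axis) in null against WT, heterozygote against WT and null against heterozygote embryos, each from an edgeR fit of 6 libraries, with bars for the 95% interval and lines at the fold change threshold of 0.5. The whole interval of Gas1 in null against WT, 0.67 to 1.11, lay past the threshold, while the intervals of Hhip, Smo and Gli2 spanned 0 in each comparison.

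Ratios of counts of a pair of genes within a library do not depend on how libraries are scaled. These pairs were chosen after the values were seen and are given without a test. The ratio of Gas1 to Boc reads was 1.09, 0.799 and 1.02 in WT, 1.42, 1.59 and 1.73 in heterozygote and 2.88, 2.64 and 2.16 in null embryos, with no overlap between genotypes. The ratio of Gli1 to Gli3 reads was 0.594, 0.627 and 0.631 in WT, 0.763, 0.960 and 1.08 in heterozygote and 1.15, 1.67 and 1.09 in null embryos. These did not overlap either, but the highest heterozygote value (1.08) and the lowest null value (1.09) nearly met. The share of all genes or gene pairs that separate all genotypes was not counted, here or for Gas1 and Bcl2. Ptch1 relative to Smo was 0.669 to 0.764 in WT, 0.831 to 0.994 in heterozygote and 0.843 to 1.13 in null embryos, where both mutant groups overlapped.

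**Figure D4:**
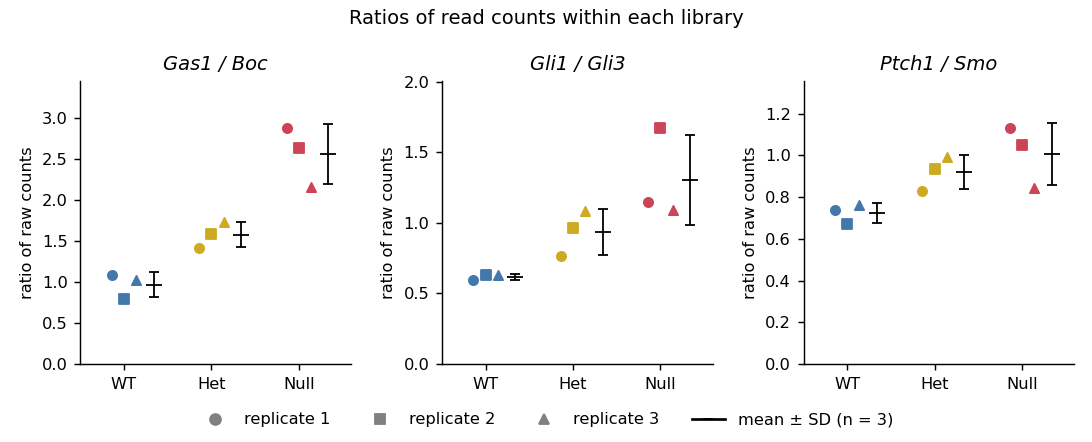
Ratio of raw counts (y axis, from 0) of Gas1 to Boc, Gli1 to Gli3 and Ptch1 to Smo in each WT, Het and Null library (x axis), with the mean ± SD (n = 3) beside the points. The mean Gas1 to Boc ratio was 0.967 in WT, 1.58 in heterozygote and 2.56 in null embryos.

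Levels of different genes were compared as CPM per kilobase of annotated exon. In WT the order was Gas1 (62.3 ± 7.28 CPM per kilobase, SD, n = 3), Boc (43.0 ± 1.90), Smo (34.8 ± 1.34), Gli1 (17.9 ± 1.61), Gli3 (15.0 ± 0.898), Gli2 (14.3 ± 0.222), Ptch1 (9.97 ± 0.420) and Hhip (1.24 ± 0.105), with Shh at 0. Neighbours in this order did not overlap between libraries except Gli3 and Gli2, and WT embryo 3 alone gave the same order. In null embryos Gas1 reached 115.6 ± 4.59 CPM per kilobase, while Smo (33.8 ± 3.46) overlapped Boc (30.6 ± 5.65) and Boc overlapped Gli1 (28.1 ± 2.02). In null embryos 1 and 2 alone, Boc (26.7 and 28.0) lay below both Smo and Gli1. The exons of all annotated transcripts were counted as length, 14185 bases for Ptch1, so that the value is lower where long forms are not used.

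Over the 9 libraries, 28 pairs of the 8 members with reads were correlated on log2 CPM. Gli1 and Ptch1 varied together, with Pearson r = 0.897 (exact two-sided permutation p = 0.000606, adjusted over the 28 pairs 0.0170) and Spearman rho = 0.933 (exact permutation p = 0.00075, adjusted 0.00700), and r was 0.884 without the 2 libraries farthest from the Ptch1 median. Boc ran against Ptch1 (r = -0.843, exact permutation p = 0.00469), Gli1 (r = -0.844, exact permutation p = 0.00339) and Gas1 (r = -0.830, exact permutation p = 0.00604), each adjusted to 0.0423. Spearman's rho for these 3 pairs was -0.933, -0.967 and -0.817 (exact permutation p adjusted to 0.00700, 0.00463 and 0.0754), and r without the 2 farthest libraries was -0.664, -0.888 and -0.777. Over the 6 libraries without WT embryos 1 and 2 and null embryo 3, r was 0.878 for Gli1 with Ptch1 and -0.733, -0.821 and -0.982 for Boc with Ptch1, Gli1 and Gas1, as a description. The other 24 pairs did not pass. These permutations moved libraries between genotypes, so that a genotype difference in both genes of a pair also counts as correlation. Within genotypes, after the genotype means were subtracted, r was 0.641 for Gli1 with Ptch1 and -0.692, -0.506 and -0.0696 for Boc with Ptch1, Gli1 and Gas1. Of the 28 pairs, 0 passed there in an exact permutation test (adjusted p of 0.907 or more), and 0 had an unadjusted p under 0.05. The smallest p that test allows is 0.00463, so that a single pair could not pass after adjustment over 28. Among 16664 genes, the patterns most like Ptch1 over the 9 libraries, by Pearson's r, were those of Kcnj16 (0.980), Aff3 (0.964) and Tmem165 (0.954), and the patterns most like Gli1 those of Fzd7 (0.953), Abr (0.948) and Slitrk2 (0.934), given as a description.

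Of 45 other genes of the pathway, 39 were tested between null and WT, 0 were called higher and 1, Bcl2, was called lower, beside 0.920% and 0.786% of all genes. The median log2 fold change of the 39 was 0.07, beside 0.01 in all genes. Bcl2, an inhibitor of cell death and a GLI target, was at 157.5 ± 7.75 CPM in WT, 130.6 ± 5.80 CPM in heterozygote and 99.9 ± 5.30 CPM in null embryos (SD, n = 3 each), with no overlap between genotypes. Its log2 fold change was -0.66 (SE 0.0753, edgeR adjusted p = 0.00662), and the call was lost without WT embryo 1, without WT embryo 2 and without the 3 libraries that stood apart (-0.535, edgeR adjusted p = 0.0734). Of 4 other receptor genes 0 were called in edgeR, while DESeq2 called 1, Gpc3, higher. Gpc3, a glypican that competes with PTCH1 for ligand, was at 282.0 ± 74.1 CPM in null and 187.0 ± 7.99 CPM in WT embryos (0.59, edgeR adjusted p = 0.182; 0.45 without the 3 libraries, edgeR adjusted p = 0.26), with its highest value, 362.4 CPM, in null embryo 3. Cdon, the third co-receptor gene, was at 334.6 ± 40.3 CPM in null and 277.6 ± 26.1 CPM in WT embryos (0.27, edgeR adjusted p = 0.390; 0.10 without the 3 libraries, edgeR adjusted p = 0.846).

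The groups for ligand making, the cilium and GLI regulation gave 0 calls between null and WT. Null and WT embryos did not overlap for 11 of the 39 genes, beside 19.0% of all genes. Gpc3, Tulp3, Hhat, Rab34, Otx1 and Otx2 were higher in every null than in any WT embryo, beside 9.85% of all genes. Bcl2, Disp1, Kif3a, Ccnd1 and Gpr161 were lower in every null than in any WT embryo, beside 9.15% of all genes. Among 6 tested genes of ligand making and release, Scube3, which carries secreted ligand, differed by 0.36 on the log2 scale (edgeR adjusted p = 0.510) with its highest value in null embryo 3 (0.07 without the 3 libraries, edgeR adjusted p = 0.878), and Disp1 had -0.13 (edgeR adjusted p = 0.583). Of 8 genes of the cilium and SMO traffic, Tulp3, an adaptor that brings receptors into the cilium, had 0.30 (edgeR adjusted p = 0.0745), and Kif3a, a motor subunit of ciliary transport, had -0.15 (edgeR adjusted p = 0.493). The 11 GLI regulators had a median log2 fold change of -0.02. Their kinase genes Csnk1a1 and Prkaca, which mark GLI proteins for processing, had -0.02 (edgeR adjusted p = 0.951) and -0.03 (edgeR adjusted p = 0.903). Of 14 targets, 10 were tested and 1 (Bcl2) was called, while Gata3 and Ccnd1 had 0.09 (edgeR adjusted p = 0.848) and -0.12 (edgeR adjusted p = 0.589). The 10 targets had a median log2 fold change of 0.22, beside 0.01 in all genes. Of them 7 were positive and 3 negative, beside 51.9% positive in all genes. At an unadjusted edgeR p under 0.05 there were 5, beside 12.2% of all genes.

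Against WT, 38 of the 45 genes were tested in heterozygotes and 0 were called in edgeR, beside 0.0521% of all genes higher and 0.0984% lower, with 14 at an unadjusted p under 0.05, beside 13.1% of all genes. DESeq2 called 1 and limma-voom 0. Between null and heterozygote embryos 0 of 38 were called in edgeR, beside 0.293% of all genes higher and 0.322% lower, with 9 at an unadjusted p under 0.05, beside 11.4% of all genes, while DESeq2 called 1, Gpc3, and limma-voom 0.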

How the data were processed

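Cochlear duct RNA of 3 WT, 3 Prdm16-het and 3 Prdm16-null embryos was analysed, with groups from the sample titles. The authors sequenced single reads of TruSeq mRNA libraries, aligned them to mm10 with STAR and deposited raw counts per Ensembl gene, without normalization. The submitters' processing notes also list cutadapt 1.13, HTSeq 0.6.1p1 and DESeq2. The strand setting is not given in the sources used here. GENCODE vM21, of the same build, named 54079 of the 54232 genes. The 37 mitochondrial genes held 0 counts.

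Each pair of genotypes was fitted on its 6 libraries with edgeR 4.0.16 in R 4.3.3 (TMM, filterByExpr, quasi-likelihood test, Benjamini-Hochberg adjustment over all genes tested). CPM values are TMM-normalized over 9 libraries, and log2 CPM used a prior count of 2. Intervals are 95% from the standard error. DESeq2 1.42.0, limma-voom (limma 3.58.1), other scalings, filters, covariates and blocks, and leaving out each embryo were alternatives. The fits were tested on simulated data.

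The members and gene lists were chosen with earlier results of these data known. Named genes were the 9 members, other pathway genes past an adjusted p of 0.05, and the 2 with the highest level per kilobase in each group of the list. Other pathway genes whose null and WT embryos did not overlap were also named. Results that need 1 further gene of the list are not reported here. Correlations were planned for all pairs of members, and likeness also for Shh, whose counts of 0 allow neither. The replicate numbers were not taken as pairs, since the labels do not tie them to litters and the deviations from the genotype means correlated at -0.284 to 0.202 between same-numbered embryos. No replicate pair was a repeated library (chi-square per gene of 5.70 or more). Each library is 1 embryo, and 3 against 3 cannot give an exact p below 0.1 for 1 gene.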

Additional observations from a re-analysis of the deposited data

How the results depend on the processing

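Gas1 in null against WT passed in all 12 alternatives other than leaving out 1 embryo, and Gli1 in 10 of 12. Same-numbered embryos were alike in Y-linked RNA for numbers 1 (mean log2 CPM of 6.16 to 6.23) and 3 (-3.61 to -3.58) but not 2 (-3.48, -1.23 and 5.95), so that a block for the number partly carries it. With the replicate number as a block, 1 member was called higher in null against WT (Gas1, while Gli1 had 0.651, edgeR adjusted p = 0.0867). The block also gave 1 member (Gli1), 1 other pathway gene higher and 1 lower (Ccnd2) in heterozygotes against WT, and over all genes it called 65 higher and 68 lower in null against WT, beside 158 and 135, 32 higher and 165 lower in heterozygotes against WT, beside 9 and 17, and 22 higher and 30 lower in null against heterozygote, beside 50 and 55.

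Leaving out WT embryos 1 and 2 and null embryo 3, chosen after seeing the marker levels, gave 1 member higher, 1 member lower, 1 other pathway gene higher (Mycn) and 0 lower in null against WT. Other pathway genes called higher there numbered 1 in DESeq2 (Gpc3), 2 with no filter on low counts (Gpc3 and Otx2), 1 with all 9 libraries in one fit (Otx2) and 1 with a covariate for mesenchyme markers (Gpc3). In heterozygotes against WT, 1 member (Gli1) was called with no filter (109 higher and 575 lower of 32010 genes) and with a covariate for Y-linked genes (17 higher and 30 lower of 17269). Other pathway genes called higher numbered 1 in DESeq2, with no composition normalization, with no filter, with a mean count over 100 and with the Y-linked covariate, and 3 were lower with no filter and 1 with a covariate for neuron markers. In null against heterozygote, 1 member (Gas1) passed with no fold change threshold, and other genes gave 1 higher in DESeq2, with no filter and with the Y-linked covariate, and 1 lower with the neuron covariate. On deviations from the genotype means, 0 pairs of members passed, where a single pair could not.

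Small differences changed sign: in null against WT, Smo to 0.00418 (mesenchyme covariate) and Hhip to -0.205 (neuron covariate) and -0.230 (the 3 libraries left out). In heterozygotes against WT, the neuron covariate turned Smo to -0.00883 and Gli3 to 0.00791. In null against heterozygote, Hhip turned to -0.0386 (limma-voom), -0.271 (mesenchyme covariate), -0.779 (neuron covariate) and -0.329 (the 3 libraries left out). The cause was not tested.

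Leaving out 1 embryo at a time gave 1 to 2 members higher, 0 to 1 lower and 0 to 1 other pathway genes lower in null against WT. In heterozygotes against WT it gave 0 to 1 members higher, and 0 to 1 other genes higher and 0 to 3 lower. In null against WT, Hhip ranged from -0.189 to 0.405, Smo from -0.111 to 0.0373 and Gli2 from -0.0902 to 0.0718. In null against heterozygote, Ptch1 ranged from -0.0922 to 0.0843, Hhip from -0.334 to 0.262, Gli1 from -0.0127 to 0.222 and Gli2 from -0.132 to 0.0246. Of 144 member values in each comparison, 131, 136 and 134 kept their direction and their call, which takes adjusted p and fold change together, in null against WT, heterozygote against WT and null against heterozygote. Shh had no reads, so that its limit of 0.125 CPM rests on the authors' counting, and Hhip, the lowest of the others, had at most 456 reads in a library.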
